A study of Ovis aries with 22 samples.

Results

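The 10 genes described here encode transcription factors that pattern the great arteries, and they were followed through sheep sinus wall. They were chosen by name: *HOXA3*, *HOXA5*, *HOXB3* and the HOX cofactor gene *MEIS1*, the cardiac factor genes *GATA4*, *GATA6*, *HAND2* and *TBX20*, and the forkhead genes *FOXC1* and *FOXC2*. All 10 had a row among the 26200 gene symbols of the count tables, and all 10 were among the 14979 genes that passed the filter on low counts. The tissue was the wall of the arterial sinus, measured by RNA sequencing in 3 groups of Ovis aries. Autograft sinus came from 3 animals 6 months after Ross surgery, in which the animal's own pulmonary root is moved into the aortic position. Aortic sinus and pulmonary sinus came from the same 4 animals, D3 to D6, which the series describes as not operated. The labels give the native libraries the treatment Control, except aortic replicate 1 (animal D3), which carries Ross surgery in its treatment label and was kept in the aortic group. No age, sex or breed was stated, and no pulmonary sinus was sampled before surgery, so autograft and native tissue always came from different animals.

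HOX proteins are homeodomain factors that mark position along the body axis, and they bind DNA together with MEIS and PBX cofactors. In the embryo the outflow tract is divided into aorta and pulmonary trunk by neural crest and second heart field cells, and GATA, HAND, T-box and FOXC factors act in those cells. Adult arterial smooth muscle and fibroblasts keep part of this expression, and the question addressed here is whether the factors in the autograft were at the level of pulmonary sinus, of aortic sinus, or of neither. Levels are given as read counts scaled to library size (CPM, with TMM factors), and a gene is said to be called when its edgeR quasi-likelihood adjusted p (Benjamini-Hochberg over all 14979 genes) was under 0.05.

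Of the 10 genes, *HOXA3*, *MEIS1* and *FOXC2* were lower in the autograft than in pulmonary sinus, and *HOXA3* and *FOXC2* were also lower than in aortic sinus. None rose. *HOXA3* and *FOXC2* stood in the autograft at 48.5% and 59.3% of the pulmonary level and at 43.4% and 50.9% of the aortic level. None of the 10 was called between the 2 native sinuses. Libraries held 17380599 to 20741334 counts. On the first principal component of log2 CPM the 3 autograft libraries (-72.8 to -37.2) lay apart from all native ones (-9.34 to 67.6). Pulmonary replicate 1 (-9.34) stood apart from the other 3 pulmonary libraries (29.5 to 67.6), and autograft replicate 1 lay alone on the second component (64.1). The calls rested on few animals: the size of each change moved little when a library was left out, but the adjusted p often crossed the threshold.

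These counts are read against all genes tested. Against pulmonary sinus 3 of 10 were called, where 11.3% of all genes were called and 5.29% were called and lower. Against aortic sinus 2 of 10 were called, where the shares were 2.38% and 1.43%. Between aortic and pulmonary sinus 0 of 10 and 0% of all genes were called by edgeR, and DESeq2 also called 0 genes. In that native comparison 306 genes (2.04%) and 1 of the 10, *GATA4*, had an unadjusted edgeR p under 0.05. The median log2 fold change of the 10 was -0.23 against pulmonary sinus, -0.17 against aortic sinus and -0.16 for aortic against pulmonary sinus, beside 0.00 for all genes in each comparison. Both autograft comparisons use the same 3 autograft libraries and are not independent of each other.

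**Figure D1:**
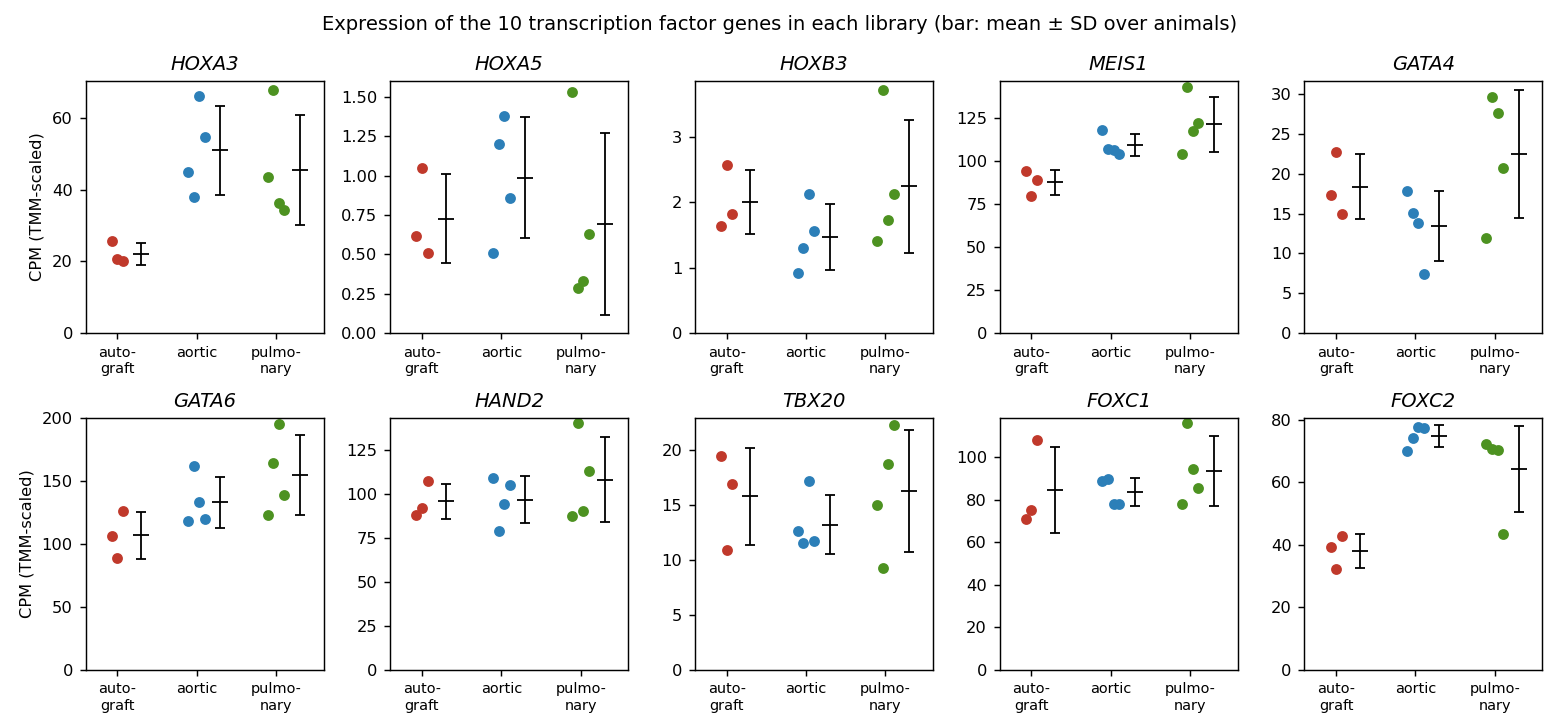
Expression of each of the 10 genes in CPM (vertical axes start at 0) in 3 autograft, 4 aortic and 4 pulmonary sinus libraries, 1 point per library, with the mean ± SD over animals beside the points. For HOXA3, MEIS1 and FOXC2 the 3 autograft points lie below all 8 native points.

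*HOXA3*, a HOX gene of the third paralog group that is needed for derivatives of the third pharyngeal arch, stood at 25.6, 20.6 and 20 CPM in autograft replicates 1 to 3. It stood at 44.8, 37.9, 66.2 and 54.6 CPM in aortic replicates 1 to 4 and at 43.6, 67.8, 36.2 and 34.4 CPM in pulmonary replicates 1 to 4. All 3 autograft libraries were below all 8 native libraries. The mean was 22.1 ± 3.07 CPM (SD, n = 3) against 45.5 ± 15.4 CPM (SD, n = 4) in pulmonary sinus. This fall measured -1.04 ± 0.26 (log2 fold change ± SE, edgeR adjusted p = 0.0292). Against 50.9 ± 12.3 CPM in aortic sinus the log2 fold change was -1.20 ± 0.26 (edgeR adjusted p = 0.0387). With the animal as a random block (limma) the call against aortic sinus ended, at an adjusted p = 0.0542. The aortic and pulmonary levels differed by 0.16 on the log2 scale, with a 95% interval from -0.34 to 0.66.

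With a library left out, the log2 fold change of *HOXA3* against pulmonary sinus lay between -1.18 and -0.79. Its call ended without autograft replicate 2 (edgeR adjusted p = 0.0936), autograft replicate 3 (0.0684) or pulmonary replicate 2 (0.0604), the highest native library. Against aortic sinus the log2 fold change lay between -1.32 and -1.05. That call ended when any autograft library (edgeR adjusted p = 0.0672, 0.124 and 0.0842 for replicates 1 to 3) or any aortic library (0.0757, 0.0541, 0.111 and 0.0786 for replicates 1 to 4) was omitted, and without pulmonary replicate 3 (0.0522). Without animal D3 it was 0.0743, and without autograft replicate 1 and pulmonary replicate 1 together, the libraries apart from their groups, it was 0.0590. Against pulmonary sinus *HOXA3* stayed called in both of these fits, at 0.0385 and 0.0397.

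*MEIS1* encodes a TALE homeodomain protein that binds DNA with HOX proteins. It stood at 94.1, 79.5 and 88.8 CPM in the autograft libraries, at 118, 107, 106 and 104 CPM in the aortic libraries and at 104, 143, 117 and 122 CPM in the pulmonary libraries. The autograft values were below all 8 native values, by a smaller distance than for *HOXA3*. The fall from 121 ± 16.1 CPM in pulmonary sinus to 87.4 ± 7.40 CPM was a log2 fold change of -0.47 ± 0.12 (SE; edgeR adjusted p = 0.0318). Against aortic sinus (109 ± 6.28 CPM) the log2 fold change was -0.32 ± 0.12 and was not called (edgeR adjusted p = 0.152), although the libraries did not overlap. The call against pulmonary sinus ended without autograft replicate 2 (edgeR adjusted p = 0.105), autograft replicate 3 (0.0565), pulmonary replicate 2 (0.0792), pulmonary replicate 3 (0.0676) or pulmonary replicate 4 (0.0592), with the log2 fold change between -0.56 and -0.39.

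*HOXB3*, the paralog of *HOXA3* in the B cluster, was less abundant per length and was not called. It lay between 1.63 and 2.56 CPM in the autograft, between 0.913 and 2.12 CPM in aortic sinus and between 1.41 and 3.71 CPM in pulmonary sinus, and the 3 groups overlapped. Its log2 fold change was -0.16 against pulmonary sinus (95% interval -1.06 to 0.73) and 0.44 against aortic sinus (-0.45 to 1.34). *HOXA5*, known for its part in lung and airway patterning, had only 5 to 27 reads per library and a mean of 0.726 ± 0.284 CPM in the autograft, 0.986 ± 0.385 CPM in aortic sinus and 0.692 ± 0.576 CPM in pulmonary sinus. At this depth its interval against pulmonary sinus ran from -1.28 to 1.43 on the log2 scale, so a change of the size seen for *HOXA3* was not detectable. Pulmonary replicate 1, at 1.53 CPM, carried most of the pulmonary mean, beside 0.285, 0.328 and 0.629 CPM in the others. Without it the log2 fold change moved from 0.07 to 0.78 against pulmonary sinus, and from 0.51 to 1.23 for aortic against pulmonary sinus, neither called by edgeR.

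The other HOX genes show what surrounded these 3. Of 34 HOX symbols in the tables, 10 had no read in any library and 15 passed the filter, 12 of them besides *HOXA3*, *HOXA5* and *HOXB3*. Reads came mainly from the low-numbered paralog groups: *HOXA3* gave 32% of all HOX reads in the autograft, 44.6% in aortic sinus and 44% in pulmonary sinus, and *HOXA4*, *HOXA2*, *HOXC4* and *HOXB2* were among the next in total. The share of *HOXA3* lay between 26.5% and 36.3% in the autograft libraries, between 34.2% and 50.9% in aortic libraries and between 36.7% and 51.2% in pulmonary libraries. All other HOX genes together made 39.1 to 57.1 CPM in the autograft, 43.2 to 73 CPM in aortic sinus and 45 to 64.6 CPM in pulmonary sinus, ranges that overlap.

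**Figure D2:**
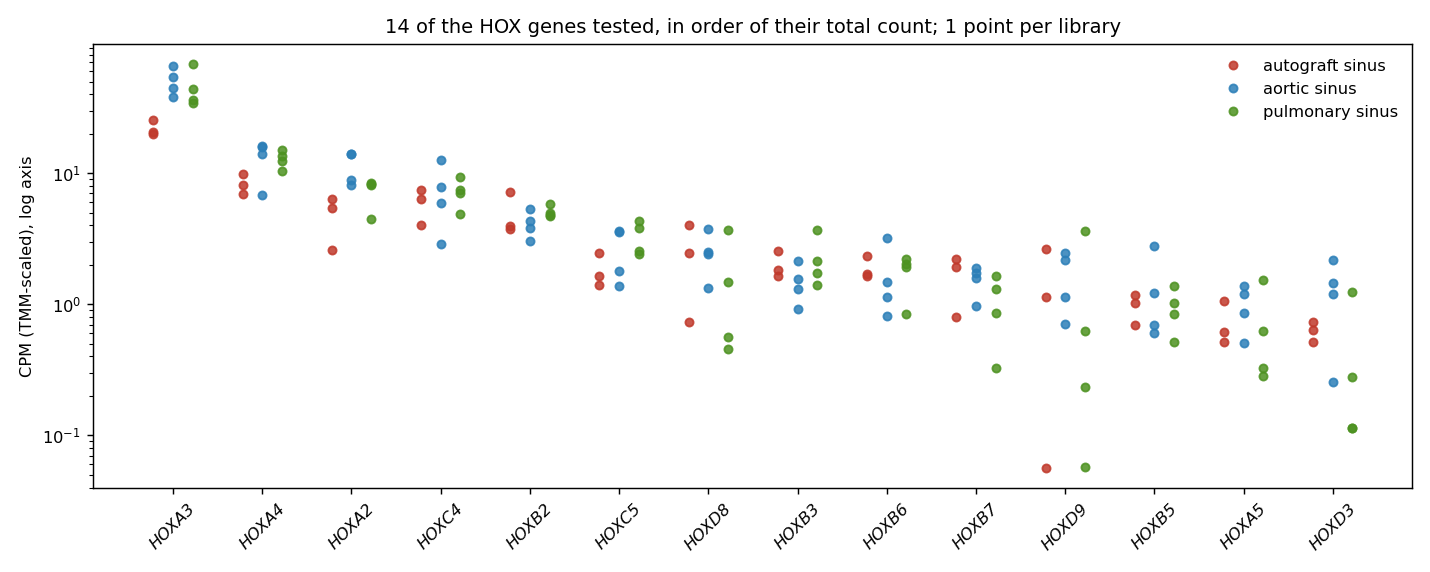
CPM of 14 of the HOX genes that passed the filter (log axis), ordered by total count, 1 point per library and colours for the 3 groups. HOXA3 has the highest total count and is the one gene here whose 3 autograft points lie below all 8 native points.

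None of the 12 other HOX genes was called in any of the 3 comparisons by edgeR, and their median log2 fold change was 0.01 against pulmonary sinus, -0.32 against aortic sinus and 0.27 for aortic against pulmonary sinus. *HOXA2*, of the second paralog group, and *HOXA4* were singled out after their values were seen. *HOXA2* stood at 4.79 ± 1.95 CPM in the autograft and 11.2 ± 3.19 CPM in aortic sinus, a log2 fold change of -1.22 ± 0.35 (edgeR adjusted p = 0.0852), and at 7.29 ± 1.90 CPM in pulmonary sinus (-0.60 ± 0.35, adjusted p = 0.265). *HOXA4*, next to *HOXA3* in the cluster, stood at 8.33 ± 1.47 CPM against 12.8 ± 1.98 CPM in pulmonary sinus (-0.61 ± 0.28, edgeR adjusted p = 0.163) with no overlap of the libraries, but overlapped with aortic sinus. In RefSeq (ARS-UI_Ramb_v3.0) the gene body of *HOXA3* overlaps those of *HOXA4*, *HOXA5* and *HOXA6*, and that of *HOXB3* overlaps *HOXB4*. No source used here states how the authors treated strand or overlapping annotation. Counts of these neighbours, and of antisense transcripts in the clusters, therefore cannot be separated with certainty.

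Among the cardiac factors, *GATA6*, a zinc finger factor of arterial smooth muscle and the outflow tract, was the most abundant in CPM. It stood at 106, 88.9 and 126 CPM in the autograft libraries, at 118, 162, 133 and 120 CPM in the aortic libraries and at 123, 164, 195 and 139 CPM in the pulmonary libraries. Autograft replicate 3 lay within both native ranges, and the other 2 autograft libraries lay below them. The log2 fold change against pulmonary sinus was -0.54 ± 0.18 (edgeR adjusted p = 0.0770). It was called without pulmonary replicate 1 (0.0307), without animal D3 (0.0441) and by DESeq2 (0.0388). Against aortic sinus it was -0.32 ± 0.18 (edgeR adjusted p = 0.319).

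*GATA4*, the paralog best known from heart muscle and the atrioventricular valves, was the gene of the 10 that separated the native sinuses most, short of a call. It stood at 17.8, 15.1, 13.8 and 7.41 CPM in the aortic libraries and at 12, 29.7, 27.7 and 20.7 CPM in the pulmonary libraries, so that pulmonary replicates 2 to 4 exceeded every aortic library and pulmonary replicate 1 did not. Aortic against pulmonary sinus gave a log2 fold change of -0.74 ± 0.31 (edgeR adjusted p = 1), with a 95% interval from -1.42 to -0.06. The autograft libraries, at 17.3, 22.8 and 14.9 CPM, overlapped with both. Their mean of 18.4 ± 4.04 CPM lay between 13.5 ± 4.39 CPM in aortic and 22.5 ± 8 CPM in pulmonary sinus, with log2 fold changes of 0.44 ± 0.33 and -0.30 ± 0.33.

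*HAND2*, a basic helix-loop-helix factor of the second heart field and neural crest, and *TBX20*, a T-box factor of heart and valve, were not called and overlapped in all 3 groups. *HAND2* stood at 95.6 ± 9.93 CPM in the autograft, 96.6 ± 13.5 CPM in aortic sinus and 108 ± 24.4 CPM in pulmonary sinus. Its 95% interval on the log2 scale was -0.40 to 0.37 against aortic and -0.56 to 0.22 against pulmonary sinus, so that both intervals end above -1, the value of a halving. *TBX20* stood at 15.8 ± 4.43, 13.2 ± 2.67 and 16.3 ± 5.55 CPM in the same order. Its intervals were wider, from -0.38 to 0.89 against aortic and from -0.69 to 0.59 against pulmonary sinus.

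The forkhead genes *FOXC1* and *FOXC2* encode closely related factors that act in arch arteries, outflow tract and, for *FOXC2*, lymphatic valves. *FOXC2* stood at 39.4, 32.1 and 42.7 CPM in the autograft libraries, at 70.1, 74.2, 77.8 and 77.3 CPM in the aortic libraries and at 72.1, 70.7, 70.3 and 43.6 CPM in the pulmonary libraries. Pulmonary replicate 4 lay just above the highest autograft library, and the other 7 native libraries lay within 70.1 to 77.8 CPM. The mean fell from 64.2 ± 13.7 CPM in pulmonary and 74.8 ± 3.55 CPM in aortic sinus to 38.1 ± 5.39 CPM. The log2 fold changes were -0.75 ± 0.17 (SE; edgeR adjusted p = 0.0228) and -0.97 ± 0.17 (adjusted p = 0.0275). On the deposited FPKM with a pseudocount of 1 (limma) they were -0.54 and -0.74 and were not called (adjusted p = 0.0752 and 0.0580).

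With a library left out, the *FOXC2* log2 fold change stayed between -0.90 and -0.65 against pulmonary sinus and between -1.07 and -0.86 against aortic sinus. The first call ended without autograft replicate 2 (edgeR adjusted p = 0.0838), pulmonary replicate 2 (0.0622) or pulmonary replicate 3 (0.0594). The second ended without autograft replicate 1 (0.0543), autograft replicate 2 (0.0931) or any aortic library (0.0590, 0.0541, 0.0860 and 0.0606 for replicates 1 to 4), and without animal D3 (0.0546). *FOXC1* was not called, with means of 84.6 ± 20.2 CPM in the autograft, 83.6 ± 6.63 CPM in aortic and 93.6 ± 16.6 CPM in pulmonary sinus. Its autograft replicates 1 to 3 stood at 71, 75 and 108 CPM. Replicates 1 and 2 thus lay below the lowest native library, at 77.8 CPM. The *FOXC1* log2 fold change was -0.14 (95% interval -0.52 to 0.23) against pulmonary and 0.02 (-0.36 to 0.39) against aortic sinus. Without autograft replicate 3 these became -0.36 and -0.20, neither called (edgeR adjusted p = 0.164 and 0.488).

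**Figure D3:**
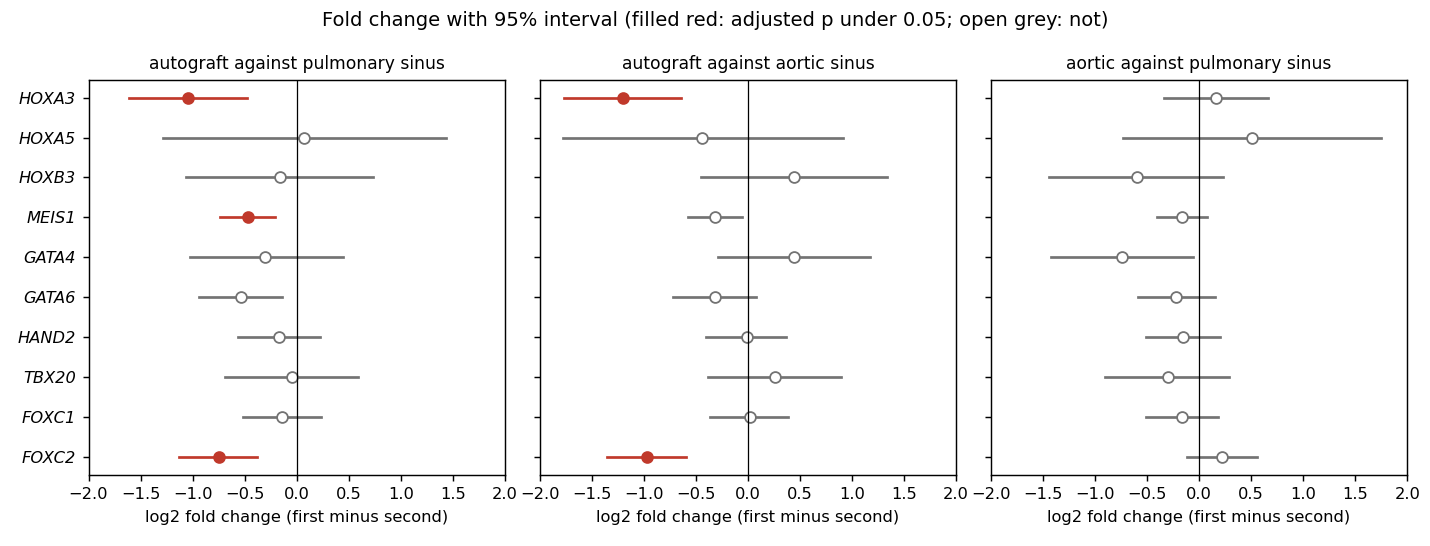
Log2 fold change of each gene (horizontal axis, first group minus second) with its 95% interval in the 3 comparisons; filled red points were called and open grey points were not. HOXA3 and FOXC2 are called against both native sinuses, MEIS1 against pulmonary sinus alone, and no gene between the native sinuses.

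Counting libraries rather than calls, 3 of the 10 genes (*HOXA3*, *MEIS1* and *FOXC2*) had all autograft libraries below all 4 pulmonary libraries, and the same 3 had all of them below the 4 aortic libraries. Over all genes tested such a separation was seen for 11.2% and 10.8%, and for 7.18% against the 8 native libraries at once. No gene of the 10 had all autograft libraries above either native group, but how many of all genes did was not counted. When autograft replicate 2 or pulmonary replicate 2 was omitted, 0 of the 10 remained called against pulmonary sinus, and 1 without autograft replicate 3 or pulmonary replicate 3. It was 4 without pulmonary replicate 1. In a fit of the autograft and pulmonary libraries alone none of the 3 was called (edgeR adjusted p = 0.0634 for *HOXA3*, 0.0938 for *MEIS1* and 0.0756 for *FOXC2*). Against aortic sinus 0 remained without autograft replicate 1 or 2 or any 1 aortic library or animal D3, and 1 without autograft replicate 3 or pulmonary replicate 3.

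**Figure D4:**
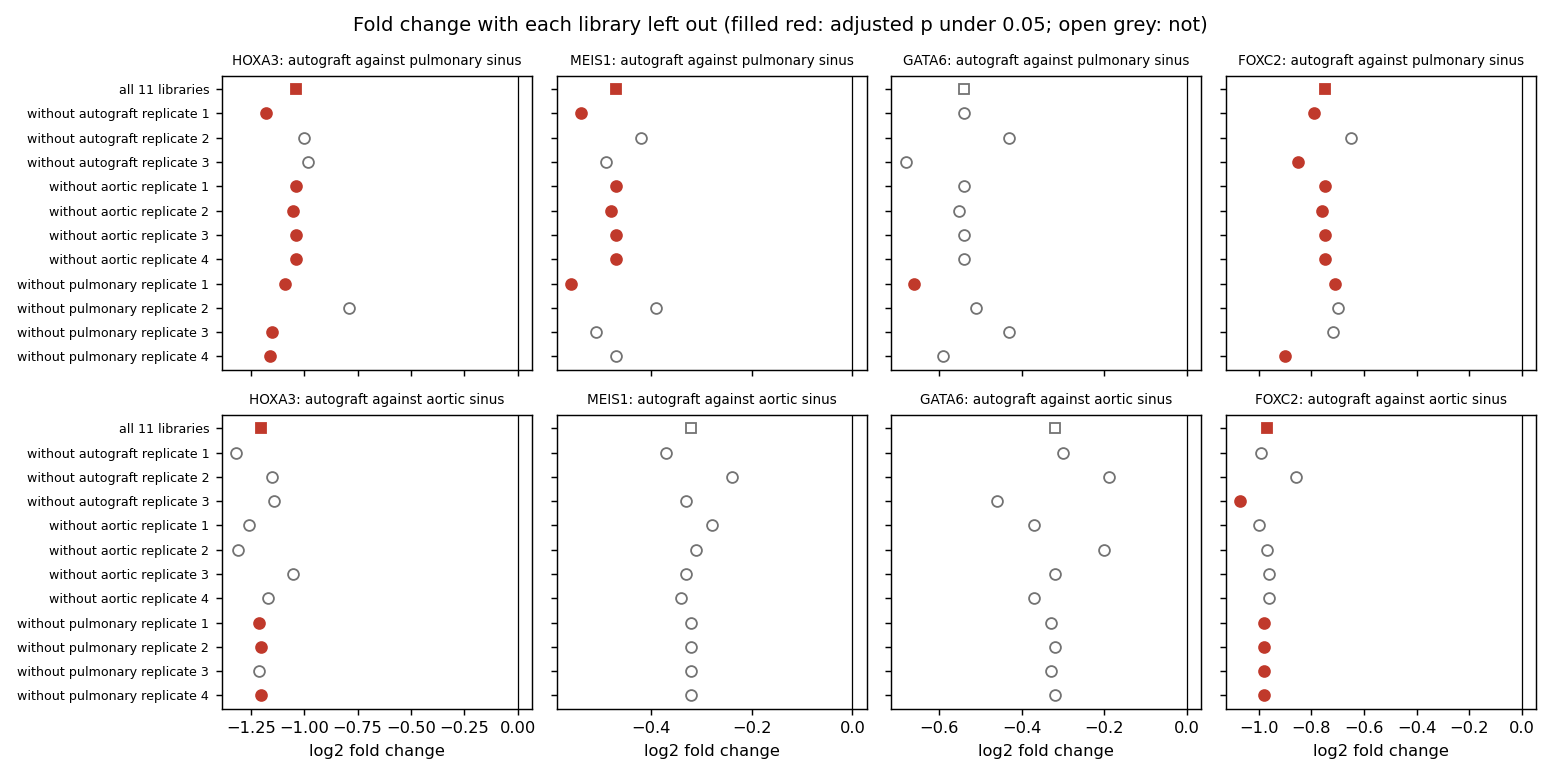
Log2 fold change (horizontal axis) of HOXA3, MEIS1, GATA6 and FOXC2 with all 11 libraries (squares) and with each library left out in turn (circles), against pulmonary sinus (upper row) and aortic sinus (lower row); filled red is called, open grey is not. Every point lies below 0, with HOXA3 against pulmonary sinus between -1.18 and -0.79.

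Among the 10 are 3 pairs of paralogs, whose ratio within a library does not depend on the scaling. These ratios were formed after the values above were seen. The log2 ratio of *FOXC2* to *FOXC1* was -1.14 ± 0.26 (SD, n = 3) in the autograft, -0.16 ± 0.18 (SD, n = 4) in aortic and -0.56 ± 0.37 (SD, n = 4) in pulmonary sinus. The autograft libraries did not overlap with the aortic ones (difference -0.98, exact permutation p = 0.0286, the smallest that 3 against 4 libraries can give) and did overlap with the pulmonary ones (-0.58, exact permutation p = 0.114). The log2 ratio of *HOXA3* to *HOXB3* was 3.46 ± 0.48 in the autograft, 5.12 ± 0.33 in aortic and 4.37 ± 0.40 in pulmonary sinus, with no overlap between the autograft and either native group (differences -1.66 and -0.91, exact permutation p = 0.0286 for each). This ratio rests on only 18 to 65 reads of *HOXB3* per library. For *GATA4* to *GATA6* the log2 ratio was -2.55 ± 0.56, -3.36 ± 0.53 and -2.84 ± 0.37 in the same order, with overlap throughout (exact permutation p = 0.114 against aortic and 0.429 against pulmonary sinus). Between the native sinuses the ratios overlapped each time, and the permutation took no account of the pairing by animal. Aortic minus pulmonary was 0.75 for *HOXA3* to *HOXB3*, 0.40 for *FOXC2* to *FOXC1* and -0.51 for *GATA4* to *GATA6* (exact permutation p = 0.0571, 0.114 and 0.229). Adjusted over the 9 tests of this family, none of the two-sided p-values was under 0.05, and the lowest was 0.0857 (exact permutation). With so few libraries, an adjusted p under 0.05 required most of the 9 tests to reach their smallest possible p. The adjusted values therefore decide little about these ratios.

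**Figure D5:**
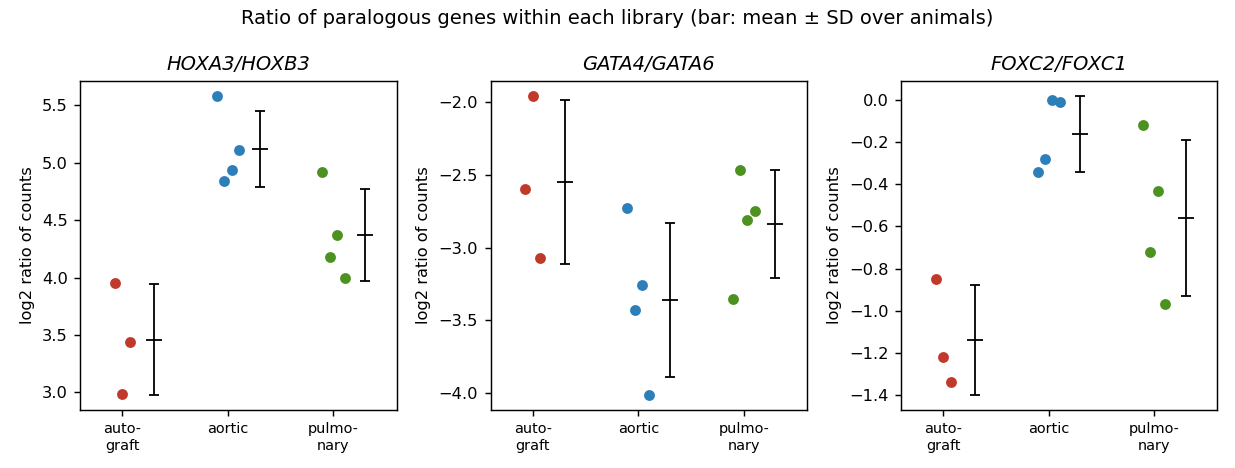
Log2 ratio of the counts of paralogous genes within each library (vertical axes, not starting at 0), 1 point per library with the mean ± SD over animals beside the points. The FOXC2 to FOXC1 ratio of the 3 autograft libraries, between -1.34 and -0.85, lies below that of the 4 aortic libraries, between -0.34 and -0.00.

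Levels of different genes can be compared only per length, for which the authors' FPKM were used. These FPKM are no plain rescaling of the counts, and how they were made is not stated. The order below therefore holds for these values alone. In aortic sinus *HAND2* was highest at 46.3 ± 5.69 FPKM, followed by *GATA6* at 32.1 ± 5.98, *MEIS1* at 31.7 ± 2.29, *FOXC2* at 26.8 ± 2.72, *FOXC1* at 20 ± 1.21 and *HOXA3* at 15.8 ± 3.75 FPKM (SD, n = 4). *GATA4* at 7.83 ± 2.2, *TBX20* at 2.83 ± 0.522, *HOXB3* at 2.15 ± 1.29 and *HOXA5* at 0.996 ± 0.376 FPKM came last. Neighbours in this order overlapped between libraries, except that *FOXC2* lay above *FOXC1*, *HOXA3* above *GATA4* and *GATA4* above *TBX20* without overlap. In the autograft 2 pairs stood in the opposite order without overlap. *FOXC1* stood at 22.3 ± 5.05 FPKM over *FOXC2* at 15.8 ± 3.52, and *GATA4* at 12 ± 1.85 over *HOXA3* at 7.18 ± 1.5 FPKM (SD, n = 3). The first gap was narrow, since the lowest *FOXC1* library stood at 18.7 FPKM and the highest *FOXC2* library at 18.5 FPKM. In pulmonary sinus the libraries of both pairs overlapped, at 22.7 ± 2.5 and 23.4 ± 4.74 FPKM for *FOXC1* and *FOXC2* and at 13 ± 3.63 and 14.4 ± 4.07 FPKM for *GATA4* and *HOXA3*.

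Because both native sinuses came from the same animals, the aortic minus pulmonary difference could be read per animal, in log2 CPM. *GATA6* was lower in aortic sinus in 4 of 4 animals, at -0.05, -0.02, -0.55 and -0.22 in D3 to D6, and so nearly level in D3 and D4. How many of all genes shared a direction in every animal was not counted. For *GATA4* the difference was 0.56 in D3 and -0.97, -1.0 and -1.47 in D4, D5 and D6. *FOXC2* was higher in aortic sinus in 3 of 4 animals, with 0.82 in D6 and between -0.04 and 0.15 in the others. For *HOXA3* the differences were 0.04, -0.84, 0.87 and 0.67 in D3 to D6, with no shared direction. The values for D3 and D4 are less sure, since over all genes the deviations of their 2 libraries from the group means correlated at -0.18 and -0.13, against 0.43 and 0.45 in D5 and D6, whereas aortic D4 with pulmonary D3 gave 0.4 and aortic D3 with pulmonary D4 gave 0.26. Whether these 4 libraries carry the right animal names in both tissues was not tested. If 1 tissue had them exchanged, the differences given for D3 and D4 would not be within an animal, and the animal block would rest on a wrong pairing.

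Of 35 other regulators of heart and outflow tract, 29 were tested. Against pulmonary sinus 2 rose and 3 fell, and against aortic sinus 1 rose. Over all genes tested, 6.05% rose and 5.29% fell against pulmonary sinus, and 0.948% rose and 1.43% fell against aortic sinus, the shares beside which this and the following lists are read. *EYA1*, a coactivator in the second heart field, rose from 0.739 ± 0.256 CPM in pulmonary and 0.943 ± 0.303 CPM in aortic sinus to 5.56 ± 2.35 CPM, at log2 fold changes of 2.89 ± 0.41 (edgeR adjusted p = 0.00655) and 2.55 ± 0.40 (adjusted p = 0.0197). It stayed called against pulmonary sinus whichever library was left out, and against aortic sinus it was lost without autograft replicate 2 (edgeR adjusted p = 0.0756) or aortic replicate 3 (0.0794). *TEAD1*, the DNA-binding partner of YAP, fell from 154 ± 25.9 to 78.6 ± 5.49 CPM against pulmonary sinus (-0.97 ± 0.17, edgeR adjusted p = 0.0120), a call kept in all 11 fits with a library left out.

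*PRDM6*, a smooth muscle repressor tied to the arterial duct, fell by 0.82 ± 0.18 and *MEF2C*, a MADS-box factor of the second heart field, by 0.64 ± 0.15 on the log2 scale against pulmonary sinus (edgeR adjusted p = 0.0195 and 0.0266). Both calls ended without autograft replicate 2 (edgeR adjusted p = 0.0581 and 0.0509) or pulmonary replicate 2 (0.0546 and 0.0653), and that of *MEF2C* also without pulmonary replicate 4 (0.0562). *TBX18*, a T-box factor of epicardium and mural cells, rose by 1.24 ± 0.35 (edgeR adjusted p = 0.0448). With 1 library omitted, that call was kept in 1 of 11 fits, and the adjusted p reached 0.170 without autograft replicate 1, which held 41.7 CPM against 22.8 and 14.1 CPM in the other 2. The list's median log2 fold change was -0.21 against pulmonary and -0.06 against aortic sinus, beside 0.00 for all genes.

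Of 18 tested neural crest and mesenchyme factors, 2 rose and 1 fell against pulmonary sinus and 0 passed against aortic sinus (edgeR; median log2 fold change -0.07 and -0.17). *TCF21*, a factor of epicardium-derived fibroblasts that is also in the fibroblast list below, rose from 7.44 ± 1.99 to 39.2 ± 5.59 CPM (2.40 ± 0.49, edgeR adjusted p = 0.0170, lost without pulmonary replicate 2 at 0.0526 or 3 at 0.0509). *TWIST2* rose by 2.31 ± 0.60 and *ZEB1* fell by 0.51 ± 0.13 on the log2 scale (edgeR adjusted p = 0.0346 and 0.0362). Leaving out 1 library ended the call of *TWIST2* in 5 of 11 fits and that of *ZEB1* in 8, with adjusted p of up to 0.0967 (without autograft replicate 1) and 0.0872 (without autograft replicate 2). Of 8 other MEIS, PBX and related cofactors, *TGIF1* rose (1.14 ± 0.31, edgeR adjusted p = 0.0388), a call that 8 of the 11 fits ended, most of all without pulmonary replicate 2 (0.101).

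Retinoic acid sets HOX expression in the embryo, and 14 genes of its synthesis, transport and receptors were tested. *RDH10*, which makes retinaldehyde, rose from 17.6 ± 1.91 CPM in pulmonary and 18.8 ± 2.51 CPM in aortic sinus to 31.7 ± 6.60 CPM, at log2 fold changes of 0.85 ± 0.17 (edgeR adjusted p = 0.0149) and 0.75 ± 0.17 (adjusted p = 0.0438). The first call ended without autograft replicate 2 (edgeR adjusted p = 0.0539), and the second in 9 of 11 fits, with 0.129 without aortic replicate 3. *CRABP1*, a retinoic acid binding protein, rose against pulmonary sinus from 1.82 ± 1.03 to 9.31 ± 4.35 CPM (edgeR adjusted p = 0.0474, up to 0.109 without autograft replicate 1 and lost in 9 of 11 fits). The other 12 were not called by edgeR in either comparison, and the median log2 fold change of the 14 was 0.31 and 0.12.

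Of 14 guidance and growth factor genes of the outflow tract, 3 rose and 1 fell against pulmonary sinus and 0 passed against aortic sinus (edgeR). *FGF10*, a second heart field ligand, rose from 0.481 ± 0.775 to 6.03 ± 2.53 CPM, *BMP4* from 19.7 to 48.1 CPM and the semaphorin receptor gene *NRP1* from 79.2 to 138 CPM (edgeR adjusted p = 0.0353, 0.0429 and 0.0367). Pulmonary replicate 1 held 1.64 CPM of *FGF10* and the other 3 held 0 to 0.172 CPM, and without replicate 1 its log2 fold change moved from 3.65 to 5.93. *PLXNA4*, a plexin, fell by 1.79 ± 0.40 on the log2 scale (edgeR adjusted p = 0.0214). Leaving out 1 library at a time ended each of these 4 calls in 4 to 9 of 11 fits. Without autograft replicate 2 all 4 ended, at edgeR adjusted p = 0.0939, 0.0711, 0.108 and 0.0581 in that order.

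By the mean absolute distance between centred log2 CPM profiles over the 11 libraries, the genes most like *HOXA3* were *DZIP1L* and *VLDLR* (0.20 and 0.21, where the median gene lay at 0.54). For *FOXC2* they were *EXTL3* and *PPP1R3B* (0.14 and 0.15, median 0.47), and for *MEIS1* *IFT122* and *BACE2* (0.06 for both, median 0.31). These are descriptions of profile likeness in the same libraries.

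The mix of cells differed between the groups, and in bulk tissue fewer cells of a type and less RNA per cell cannot be told apart. The 7 smooth muscle markers measured, myosin heavy chain gene *MYH11* and myocardin gene *MYOCD* among them, summed to 24070 to 47750 CPM in the autograft, 49101 to 69510 CPM in aortic and 51127 to 83702 CPM in pulmonary sinus. The lowest value was autograft replicate 1 alone, and the other 2, at 46292 and 47750 CPM, lay close under the lowest aortic library. Of these 7, 3 fell against pulmonary sinus and 1 against aortic sinus, with a median log2 fold change of -0.60 and -0.58. The 8 fibroblast markers summed to 20387 to 29489 CPM in the autograft against 9833 to 11215 CPM in aortic and 5536 to 13941 CPM in pulmonary sinus, and 4 rose against pulmonary and 2 against aortic sinus. Thus summed smooth muscle markers were lower, and summed fibroblast markers higher, in every autograft library than in any native library, as *HOXA3*, *MEIS1* and *FOXC2* were lower; their part in those changes was not tested.

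T and natural killer cell markers summed to 33.3 to 43.7 CPM in the autograft against 1.94 to 9.18 CPM in native libraries (6 of 8 called higher against pulmonary and 4 against aortic sinus). Macrophage markers summed to 103 to 881 CPM in the autograft, 91.3 to 277 CPM in aortic and 41.1 to 218 CPM in pulmonary sinus (3 of 7 higher against pulmonary and 0 against aortic sinus by edgeR). The 12 cardiomyocyte markers measured, which bear on *GATA4*, *HAND2* and *TBX20*, summed to 62.1 to 233 CPM, 170 to 440 CPM and 147 to 418 CPM, and *NPPA* and *NPPB* were at 0 in all pulmonary libraries. Of the 10 tested, *MYH7* was called lower against pulmonary sinus, while the list's median log2 fold change was 0.62 against pulmonary and -0.94 against aortic sinus. Endothelial markers (9 measured) summed to 186 to 1699 CPM in the autograft and 133 to 641 CPM in native libraries, with 2 called higher against pulmonary sinus. Lymphatic markers (5 measured), which bear on *FOXC2*, summed to 95.6 to 188, 106 to 232 and 22 to 406 CPM in the 3 groups. The 406 CPM was pulmonary replicate 1 alone, and the other 3 pulmonary libraries, at 22 to 54.5 CPM, lay below every autograft library. Of the 5, *PDPN* was called higher against each native sinus, while the list's median log2 fold change was -0.71 against pulmonary and -1.19 against aortic sinus. The part of these cells in the *FOXC2* values was not tested. Adipocyte markers (7) spanned 44.2 to 934 CPM in the autograft and 13.6 to 456 CPM in native libraries, mesothelial markers (3) 7.21 to 59.1 and 1.64 to 9.13 CPM (59.1 in autograft replicate 1 alone, with 7.39 and 7.21 CPM in the others, inside the native range), and Schwann cell and nerve markers (6) 35.9 to 93.9 and 74.5 to 267 CPM. Of these 3 lists only 1 adipocyte marker was called, higher against pulmonary sinus.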

How the data were processed

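Each of the 11 libraries was sequenced in 2 runs, deposited as 22 sample entries. The authors deposited raw whole-number counts per gene symbol, 1 table per run, per the labels and the file values. They also deposited FPKM values. No FPKM value in run 1 is 0, although the raw count is 0 for 4505 of them, so these FPKM are no plain rescaling of the counts, and how they were made is not stated. For 47.6% of genes the run 1 values were whole multiples of 1 step per gene, and the median multiple was 19 in every library. Per the submitters' processing notes reads went through cutadapt, STAR 2.5.2b, Bowtie2 2.3.3.1 and featureCounts 1.5.3, in roles not stated. Genome build, annotation and strand setting: not given in the sources used here. Per the labels' protocols, TRIzol RNA went into TruSeq libraries.

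Counts of both runs were added, giving 17380599 to 20741334 per library. The chi-square per gene was 1.36 to 1.47 for the runs of a library and 25.4 to 88.6 for replicate libraries. An unnamed row (up to 0.000522% of counts) was dropped. Groups came from the source labels. Genes passing filterByExpr were tested in 1 edgeR quasi-likelihood fit over all 3 groups with TMM scaling and no block (edgeR 4.0.16 in R 4.3.3). That fit was also run on simulated counts, drawn from each gene's mean over all libraries and the fit's dispersions, without animal pairing. Known fold changes were set for some genes in the simulated autograft libraries. Such a run cannot show what leaving the pairing out does. Log2 CPM used a prior count of 2 and paralog ratios 0.5. SE are from the fit and SD are over animals; the precision is limited by 3 and 4 animals. The native libraries pair by animal per the labels, and the block used that pairing (correlations -0.18, -0.13, 0.43 and 0.45 for D3 to D6). Alternatives were RLE scaling, DESeq2 1.42.0, no filter, only the 2 groups compared, the animal block, FPKM in limma with pseudocounts of 1 and 0.1, each run alone, and libraries left out. For the autograft comparisons the animal block was a random block in limma 3.58.1. For aortic against pulmonary sinus it was a fixed factor in an edgeR fit of the native libraries. All 10 genes are given in full; called genes of the other lists are named, up to 6 per list and comparison by smallest p, apart from called cell type markers, which are given as counts and sums. Genes and lists were chosen with earlier results of these data known. RefSeq names matched 18717 of 26200 symbols, and no coordinates or sequences are given. Values of 1 HOX gene are not reported here.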

Additional observations from a re-analysis of the deposited data

Results flagged for a closer look

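For *FOXC2* in pulmonary sinus, replicate 4 stood at 43.6 CPM, far below the other 3 libraries at 72.1, 70.7 and 70.3 CPM and just above the highest autograft library at 42.7 CPM. It was the 1 native library among the 20 groups of 4 examined (10 genes in 2 native groups) whose gap to its neighbour exceeded Dixon's 95% limit, and chance alone marks about 1 in 20 such groups. Without it the log2 fold change of *FOXC2* against pulmonary sinus was -0.90 in place of -0.75.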

How the results depend on the processing

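The number of the 10 genes called against pulmonary sinus was 3, and leaving out 1 library in turn gave 0 to 4. It was 4 with DESeq2, 4 without animal D3, 2 with log2(FPKM + 1), 2 with log2(FPKM + 0.1) and 0 with only the 2 groups compared. Against aortic sinus it was 2, and 1 with log2(FPKM + 1), 1 with log2(FPKM + 0.1), 1 with the animal as a replicate block, 0 without animal D3 and 1 without autograft replicate 1 and pulmonary replicate 1; leaving out 1 library gave 0 to 2. Over all genes, 1699 were called against pulmonary sinus, 2997 with DESeq2 and 479 with only the 2 groups compared, and 452 to 2753 with 1 library left out. Against aortic sinus 356 were called (142 higher and 214 lower), 1469 with DESeq2 (754 higher and 715 lower) and 110 without animal D3, and 25 to 576 with 1 library left out. Without both autograft replicate 1 and pulmonary replicate 1 the split was 212 higher and 188 lower. The animal block gave 1611 and 361 genes over all; among the 10 genes it changed only the call of *HOXA3* against aortic sinus. Between the native sinuses 0 genes were called in all 22 alternatives. Of 219 values of the 10 genes per comparison, 16 lost a call, 3 gained one and none called changed direction against pulmonary sinus; 20 lost one and none gained one or, while called, changed direction against aortic sinus. The cause of these shifts was not tested, beyond the smaller number of libraries where one was left out. With 3 autograft animals, some intervals of the less abundant genes held a halving (-1 on the log2 scale). Against pulmonary sinus the lower ends were -1.28 for *HOXA5*, -1.06 for *HOXB3*, -1.03 for *GATA4* and -0.69 for *TBX20*. Against aortic sinus they were -1.78, -0.45, -0.29 and -0.38 in the same order.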
